A study of Mus musculus with 32 samples.

Results

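Ddx4 and Slc38a9 are neighbouring genes on mouse chromosome 13 that were chosen by the longest histone H3 lysine 9 trimethylation (H3K9me3) peak of a single peak list, which lies across both of them. They are 2 of the 21887 protein-coding genes of the annotation used (GRCm38.p6) on chromosomes 1 to 19, X and Y, and they are described here with 200 kb on each side, a region of 540.4 kb. Since the peaks of the same lists chose the genes, every value below describes these lists, and no test was made on it.

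The study mapped H3K9me3 by ChIP-seq in germ cells of the testis, which the labels call gonocytes, before birth at E13.5 and E16.5 (days of embryonic development) and after birth at P0 and P3 (days of age). At each stage the cells came from Morc1 (+/-) animals (het) and Morc1 (-/-) animals (KO), so the het animals are the controls. All animals, controls included, carried the Mvh-Venus transgene, and the labels do not say which sequence drives it, where it inserted or how many copies there are. Each of the 8 H3K9me3 groups held 2 samples and is represented by 1 deposited peak list that names no replicate, so there is no replicate error. Mvh is another name of Ddx4. If the transgene holds sequence of this locus, its reads would map to the coordinates described here, and a list of peaks cannot tell the 2 sources apart. The labels do not say whether every group had the same number of transgene copies, and the part of the transgene in the values below was not tested.

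H3K9me3 is a mark of heterochromatin, placed by histone methyltransferases and read by HP1 proteins, and over genes it usually goes with silence. Ddx4 encodes a DEAD-box RNA helicase of germ cells, the mouse homologue of Drosophila Vasa, which is found in germ granules and is needed for piRNA production and spermatogenesis. Slc38a9 encodes a lysosomal amino acid transporter that signals arginine to the mTORC1 growth pathway and is expressed in many tissues. The Morc1 protein, a GHKL-type ATPase of the nucleus, is needed to silence transposons in the male germ line. Peak lists hold no expression value, so they show neither the knockout nor the identity of the cells.

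Ddx4 occupies chr13:112598333-112652633 (54.3 kb, minus strand), and Slc38a9 occupies chr13:112656189-112738752 (82.6 kb, plus strand). The genes lie head to head with 3.56 kb between them, so the 3′ end of Ddx4 is at the low coordinate and the 3′ end of Slc38a9 at the high one. Exons and introns were not used here. The 250 bases before the start site of each gene are printed 5′ to 3′ on the gene's strand, because in some lists a peak lay on this start of Ddx4 and none on this start of Slc38a9. They were taken from RefSeq (GRCm38.p6), at chr13:112652311-112652560 for Ddx4 and chr13:112660516-112660765 for Slc38a9, and capitals mark each CG. Longer transcript models of both genes start outside these windows.
Ddx4: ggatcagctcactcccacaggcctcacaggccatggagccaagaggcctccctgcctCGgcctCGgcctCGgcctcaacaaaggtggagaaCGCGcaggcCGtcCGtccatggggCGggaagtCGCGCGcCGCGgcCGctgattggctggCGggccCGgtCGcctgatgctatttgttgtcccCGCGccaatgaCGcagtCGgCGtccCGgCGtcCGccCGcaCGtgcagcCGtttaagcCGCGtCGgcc
Slc38a9: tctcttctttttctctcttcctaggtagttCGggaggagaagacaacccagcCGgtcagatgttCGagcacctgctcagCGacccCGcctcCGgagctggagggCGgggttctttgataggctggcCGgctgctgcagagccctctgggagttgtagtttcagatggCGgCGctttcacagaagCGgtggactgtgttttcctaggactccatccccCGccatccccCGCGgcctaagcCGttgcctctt
The motif CG, which reads the same on both strands, occurs 31 times in the Ddx4 window and 15 times in the Slc38a9 window. Of the 32851 promoters in the RefSeq table, 92.1% hold at least 1 CG in these 250 bases, with a median of 6. At least as many as in Ddx4 occur in 5.19% of them, and at least as many as in Slc38a9 in 27.3%.

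H3K9me3 peaks lay across nearly all of Ddx4 and the adjoining part of Slc38a9 in the lists of E13.5 het, E13.5 KO, E16.5 het and P3 het. In E16.5 KO, P0 het and P0 KO the same stretch held only short separate peaks, and P3 KO lay between. Of the 54.3 kb of Ddx4, the E13.5 lists called 50.03 kb (het) and 47.5 kb (KO), and the E16.5 lists 49.97 kb (het) and 6.79 kb (KO). After birth, the P0 lists called 11.7 kb (het) and 12.2 kb (KO), and the P3 lists 50.2 kb (het) and 27.5 kb (KO). Ddx4 thus had its lowest value in E16.5 KO and its highest in P3 het.

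As a share of the gene, Ddx4 was 92.4% covered in P3 het, 92.1% in E13.5 het, 92.0% in E16.5 het and 87.6% in E13.5 KO. The 95% Wilson intervals of these shares, which treat each 1 kb of the gene as 1 observation and cover counting error only, overlapped (76.2 to 93.9% for the lowest, 82.3 to 97.0% for the highest). P3 KO followed with 50.6% (37.7 to 63.4%), which overlapped no other list's interval. P0 KO had 22.4% (13.3 to 35.1%), P0 het 21.5% (12.6 to 34.2%) and E16.5 KO 12.5% (6.12 to 23.9%), and these 3 overlapped. Neighbouring bases of a peak are not independent, so the intervals are narrower than a true error would be.

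Of the 82.6 kb of Slc38a9, the E13.5 lists called 55.5 kb (het) and 55.3 kb (KO), and the E16.5 lists 57.1 kb (het) and 13.55 kb (KO). The P0 lists called 10.8 kb (het) and 17.5 kb (KO), and the P3 lists 55.3 kb (het) and 37.4 kb (KO). The same 4 lists were high as for Ddx4, with 67.0 to 69.1% of the gene covered, and P3 KO again came next with 45.3% (35.1 to 56.0%). The lowest 3 were P0 KO with 21.2% (13.8 to 31.2%), E16.5 KO with 16.4% (9.96 to 25.8%) and P0 het with 13.0% (7.39 to 21.9%), whose intervals overlapped. The lowest list therefore differed between the genes, P0 het for Slc38a9 and E16.5 KO for Ddx4, within overlapping intervals.

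**Figure D1:**
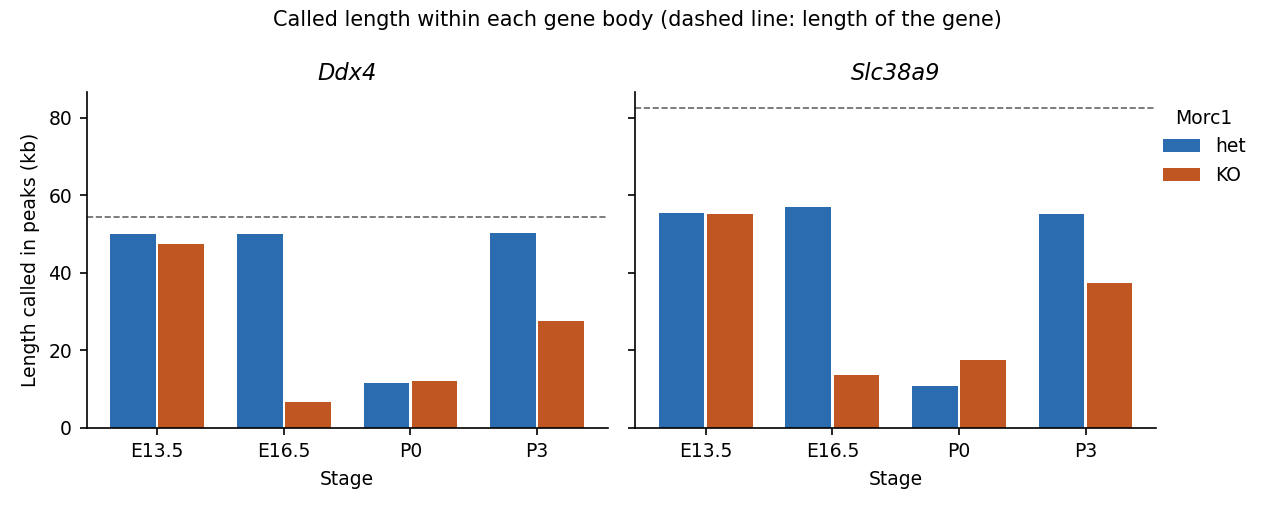
Length called in H3K9me3 peaks within Ddx4 (left) and Slc38a9 (right), in kb on the vertical axis, by stage, with 1 bar per list (blue het, orange KO) and a dashed line at the length of the gene. For Ddx4 the bars of E13.5 het, E13.5 KO, E16.5 het and P3 het stand between 47.5 and 50.2 kb, and those of E16.5 KO, P0 het and P0 KO between 6.79 and 12.2 kb.

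Read against all protein-coding genes, coverage of this extent was uncommon at every stage. Ddx4 was at least 50% covered in 5 lists and Slc38a9 in 4. The share of all genes at least 50% covered was 2.33% in E13.5 het, 3.04% in E13.5 KO, 3.34% in E16.5 het, 2.87% in P3 het and 3.28% in P3 KO, where only Ddx4 reached it. In the lists where neither gene reached it, the share was 3.14% in E16.5 KO, 2.99% in P0 het and 3.35% in P0 KO. The median gene had 0% covered in every list. Even the lowest share of Ddx4, 12.5% in E16.5 KO, was reached by only 9.16% of genes in that list, and the lowest of Slc38a9, 13.0% in P0 het, by 10.1%.

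The covered stretch ended at nearly the same places wherever it was filled. In P3 het its peaks ran from chr13:112597967 to chr13:112711493, a block of 113.5 kb that was delimited after its values were seen. The low edge lay at the 3′ end of Ddx4: relative to the gene's end, the first peak began at -0.366 kb in P3 het, -0.32 kb in E13.5 KO, -0.291 kb in E16.5 het and 0.797 kb in E13.5 het, where a negative value lies outside the gene. These 4 starts spread over 1.16 kb. A separate peak of 1001 bp lay just outside that edge in the same 4 lists, starting at chr13:112595088 in P3 het and within 0.116 kb of there in the others. No such peak was called in E16.5 KO, P0 het, P0 KO or P3 KO.

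The high edge was common to all 8 lists and lay inside Slc38a9. The last peak of the block ended between chr13:112711440 (E16.5 KO) and chr13:112713340 (E13.5 het), a spread of 1.9 kb, and 6 of the 8 ends lay at or before chr13:112711670. Beyond it, 27.3 kb of Slc38a9 up to its 3′ end were nearly free of peaks. The covered part of that 3′ stretch was longest in P3 KO, with 2.10 kb, followed by E13.5 het (1.85 kb), E16.5 het (1.79 kb), P0 KO (1.10 kb), P0 het (0.147 kb) and E13.5 KO (0.019 kb). It was 0 in E16.5 KO, and in P3 het it was 0 by definition, since the P3 het peaks set the ends of the block. The next peak after the edge came 16.1 kb later in P3 KO and 228.3 kb later in E16.5 het. Separate peaks in this 3′ stretch were called only in P0 KO (chr13:112728740-112729740) and P3 KO (chr13:112727777-112729703). The coverage of Slc38a9 therefore lay mostly in its 5′ part. Within the block its share reached 97.0% in E13.5 het and 100% in E13.5 KO, E16.5 het and P3 het, the list that set the block.

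**Figure D2:**
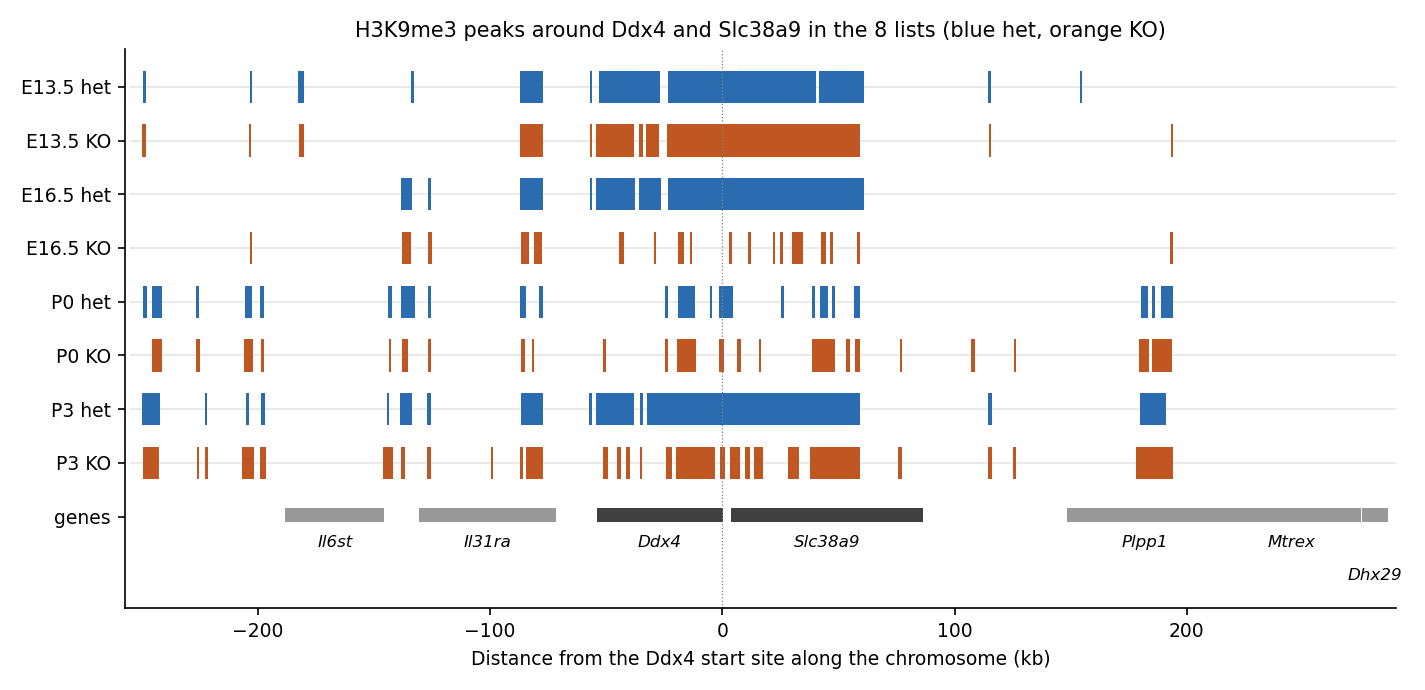
Peaks of the 8 lists (1 row each, blue het, orange KO) over Ddx4, Slc38a9 and 200 kb on each side, with gene bodies in the bottom row; the horizontal axis is the distance in kb from the Ddx4 start site. Rows E13.5 het, E13.5 KO, E16.5 het and P3 het are filled from the end of Ddx4 to a common right edge inside Slc38a9, while E16.5 KO holds 12 short peaks over the same stretch.

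Within the block the number and length of the peaks differed between lists, and so did the low limit where the block was not filled. The first peak began at chr13:112601090 in P0 KO, chr13:112601098 in P3 KO, chr13:112607947 in E16.5 KO and chr13:112627539 in P0 het. E13.5 het had 3 peaks (26.5, 63.4 and 19.2 kb), E13.5 KO had 4 (16.4, 1.57, 5.59 and 83.2 kb), E16.5 het had 3 (16.8, 9.62 and 84.5 kb) and P3 het had 3 (16.4, 1.32 and 91.7 kb). The longest of these ranked 30 of 52628 peaks by length in E13.5 het, 20 of 57803 in E13.5 KO, 16 of 78816 in E16.5 het and 1 of 81140 in P3 het. The P3 het peak is the peak by which the genes were chosen, so its rank was fixed by that choice. Peaks of such length were rarer after birth, with 72 to 102 of at least 50 kb in each embryonic list, 16 in P0 het, 21 in P0 KO, 4 in P3 het and 6 in P3 KO.

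E16.5 KO had 12 peaks in the block, of 1.00 to 4.85 kb, and all 12 lay wholly inside E16.5 het peaks. P0 het had 9 peaks of at most 7.48 kb and P0 KO 9 of at most 9.71 kb. P3 KO had 12, the longest of 21.5 kb at the high edge (chr13:112690172-112711670). The next, of 16.8 kb, lay in the 5′ part of Ddx4 (chr13:112632415-112649239), starting 34.1 kb from the gene's low end. The covered part of the block was 94.5% in E13.5 het, 94.0% in E13.5 KO, 96.1% in E16.5 het, 18.9% in E16.5 KO, 22.8% in P0 het, 25.4% in P0 KO, 96.4% in P3 het and 56.6% in P3 KO.

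The few bases that every list called sat in fixed places. All 8 lists called 7.54 kb of the block, in 5 stretches. In Ddx4 these were chr13:112633102-112635903 (2.80 kb) and chr13:112638381-112639381 (1.00 kb). In Slc38a9 they were chr13:112694629-112696955 (2.33 kb), chr13:112699724-112699849 (0.126 kb) and chr13:112710159-112711440 (1.28 kb), the last of which ends at the common high edge. At least 7 lists called 18.8 kb in 7 stretches, the longest of 7.48 kb around the first of these (chr13:112633085-112640568). Every base of the block was called in at least 1 list, and 92.8% of it in at least 4.

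The 5′ end of Ddx4 was called in 7 of the 8 lists. A peak covered all 250 bases printed above in every list but E16.5 KO, where the nearest peak edge was 2.73 kb from the start site. In P0 het that peak measured 6.32 kb (chr13:112650800-112657120) and also filled the space between the genes. In P0 KO it measured 1.83 kb (chr13:112651084-112652911), and in P3 KO 2.07 kb (chr13:112651348-112653421). Among all promoters of the table, peaks covered all of the same 250 bases in 3.43% (E13.5 het) to 5.36% (P0 KO). They touched at least 1 bp of them in 4.20% (E13.5 het) to 6.33% (P0 KO).

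For Slc38a9 the printed window and the outer 5′ end of the gene differed. All 250 bases of the window printed above were covered in E13.5 het, E13.5 KO, E16.5 het and P3 het. In P0 KO 21 bp of them were covered, and in E16.5 KO, P0 het and P3 KO none was, with the nearest peak edge 2.40, 3.65 and 0.941 kb from the start site. The start at chr13:112660766, inside the gene extent used here, thus lay in a peak in the 4 filled lists only. The outer 5′ end of Slc38a9, at chr13:112656189, lay in a peak in those lists and also in E16.5 KO (chr13:112655042-112656440), P0 het (chr13:112650800-112657120) and P3 KO (chr13:112655533-112659825). P0 KO was the list without a peak there.

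The comparison of het with KO asks how the loss of Morc1 bears on the mark. At E13.5 the genotypes were close, with 2.49 kb more of Ddx4 and 0.168 kb more of Slc38a9 covered in het. At E16.5 het covered 43.2 kb more of Ddx4 and 43.5 kb more of Slc38a9 than KO, which is 7.36 and 4.21 times the KO length. At P0 het minus KO was -0.483 kb for Ddx4 and -6.74 kb for Slc38a9, so KO had 1.04 and 1.63 times the het length. For Slc38a9 this P0 gap was opposite in direction to that of E16.5 and P3, and it ranked 45 from the lowest het minus KO share among the 4590 genes at least as long as Ddx4. At P3 het covered 22.7 kb more of Ddx4 and 17.9 kb more of Slc38a9, or 1.83 and 1.48 times the KO length. In kb the gap between the 2 lists was thus widest at E16.5 for both genes, with no replicate to set it against, and the P0 difference in Ddx4 was under the length of the shortest peaks.

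A gene was called when its covered share differed by at least 25 percentage points. At E16.5 both genes were called higher in het, by 79.5 points (95% Newcombe interval 64.2 to 87.5) and 52.7 points (38.6 to 63.7), beside 0.484% of all genes higher and 0.228% lower in het. At P3 Ddx4 was called, by 41.8 points (25.5 to 55.6), and Slc38a9 was not, with 21.7 points (6.56 to 35.4), beside 0.512% of all genes higher and 0.822% lower. Neither gene was called at E13.5 (0.26% of genes higher and 1.25% lower in het) or at P0 (0.402% and 0.736%). These contrasts entered the choice of the genes, so the counts are a description.

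Among the 4590 protein-coding genes at least as long as Ddx4, Ddx4 and Slc38a9 held the largest and second largest het excess at both E16.5 and P3. Shorter genes, which a single peak can fill, differed by up to 100 points, and among all 21887 genes 29, Ddx4 included, reached the difference of Ddx4 at E16.5 and 54 that of Slc38a9. Of the long genes they were the only ones past 25 points at E16.5, and at P3 Ddx4 alone was. The genome was also divided into 18522 windows as long as the span of both genes (140.4 kb). The span itself differed by 63.5 points at E16.5 (53.3 to 71.3) and 30.4 points at P3 (19.2 to 40.6). Outside the locus the highest het excess of any window was 39.96 points at E16.5 and 23.4 points at P3. Windows with a het excess of at least 25 points made up 0.0486% at E16.5 and 0.0054% at P3, where the single window lay on the locus. At E13.5 the span differed by 1.89 points and at P0 by -2.81 points, values that other windows reached. When peaks less than 5 kb apart were joined, the span difference at P3 was 15.6 points, under the threshold, with Ddx4 covered to 100% in P3 het and 76.1% in P3 KO.

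**Figure D3:**
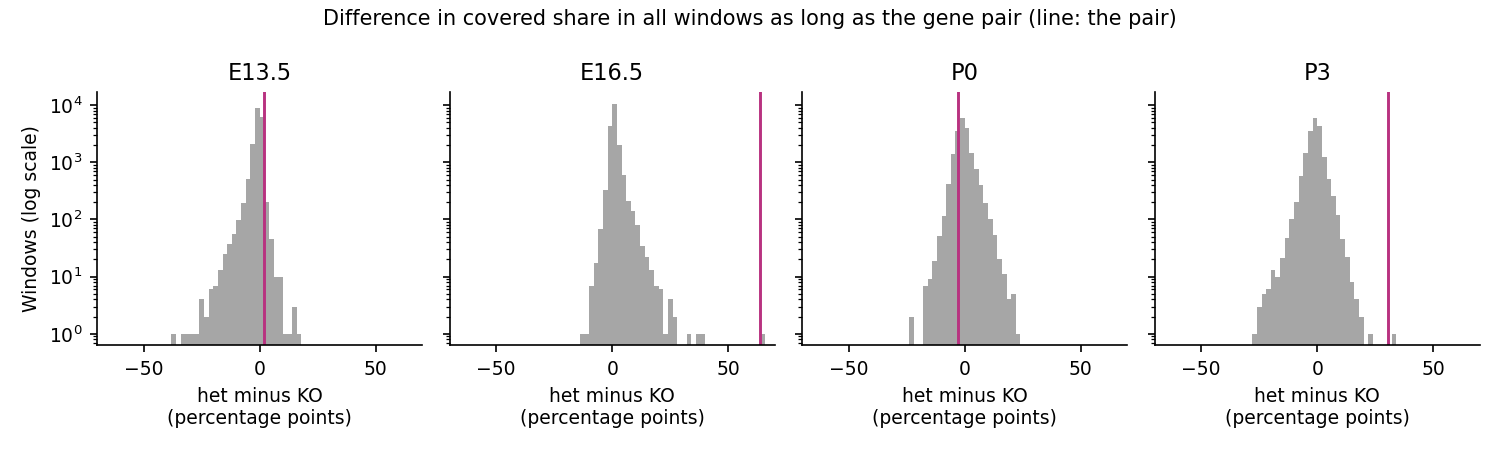
Covered share in het minus KO, in percentage points on the horizontal axis, for all 18522 windows of 140.4 kb (grey bars, number of windows on a log axis) at each stage, with a vertical line at the span of Ddx4 and Slc38a9. The line stands at 63.5 points at E16.5 and 30.4 points at P3, to the right of every window outside the locus, and among the windows at E13.5 and P0.

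The steps between stages differed between the genotypes. In het, the covered length of Ddx4 changed by -0.063 kb from E13.5 to E16.5, by -38.3 kb to P0 and by 38.5 kb to P3. In KO the same steps were -40.8 kb, 5.37 kb and 15.3 kb. For Slc38a9 they were 1.60, -46.3 and 44.6 kb in het and -41.8, 3.95 and 19.9 kb in KO. The low state of the locus was thus present in KO at both E16.5 and P0 and in het at P0 only. In each genotype the called length at P3 was above that at P0.

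By the 25-point rule, the step from E13.5 to E16.5 was called lower for both genes in KO (1.66% of all genes lower, 1.5% higher) and for neither in het (0.809% lower, 2.03% higher). The step from E16.5 to P0 was called lower for both in het (1.18% lower, 0.786% higher) and for neither in KO (0.859% lower, 1.27% higher). The step from P0 to P3 was called higher for both in het (1.04% higher, 0.873% lower). In KO it was called higher for Ddx4, by 28.2 points, while Slc38a9 differed by 24.1 points, just under the threshold (0.95% higher, 0.868% lower).

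Overlap of the het and KO calls in the block was lowest at E16.5. The Jaccard index, the base pairs in both lists over those in either, was 0.931 between het and KO in the block at E13.5 and only 0.197 at E16.5, with 0.517 at P0 and 0.586 at P3. Over the whole genome, in the order of the stages, it was 0.713, 0.798, 0.699 and 0.666. The block was thus above the genome at E13.5 and below it at E16.5, P0 and P3, and the gap was widest at E16.5. In the flanks, without the genes and the block, it was 0.760, 0.640, 0.622 and 0.617. Between E13.5 het and E16.5 het the block had 0.953 against 0.453 for the genome, and between E13.5 KO and E16.5 KO 0.201 against 0.505.

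Most other long domains were covered further in the same comparisons. Of the 102 E16.5 het peaks of at least 50 kb, the peak on this locus was 21.9% covered in E16.5 KO, and the rest, 101 peaks, were covered to between 40.6 and 100%, with a median of 99.3%. Of the 99 such peaks in E13.5 KO, the peak on the locus was 22.2% covered in E16.5 KO, and the lowest of the other 98 was 66.5%. In P0 het, the E16.5 het peak on the locus was 29.3% covered, next to 29.5% for the lowest of the others and a median of 84.5%, so at that step it did not stand apart. Of the 4 peaks in P3 het, the peak on the locus is the peak that chose the genes. It was 62.8% covered in P3 KO and 28.2% in P0 het, and the other 3 at least 93.4% and 97.1%. In other comparisons the locus was not the lowest. The E13.5 het peak on it was 100% covered in both E13.5 KO and E16.5 het, and the E13.5 KO peak was 68.9% covered in P3 KO, where 16 of the other 98 were covered as little.

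**Figure D4:**
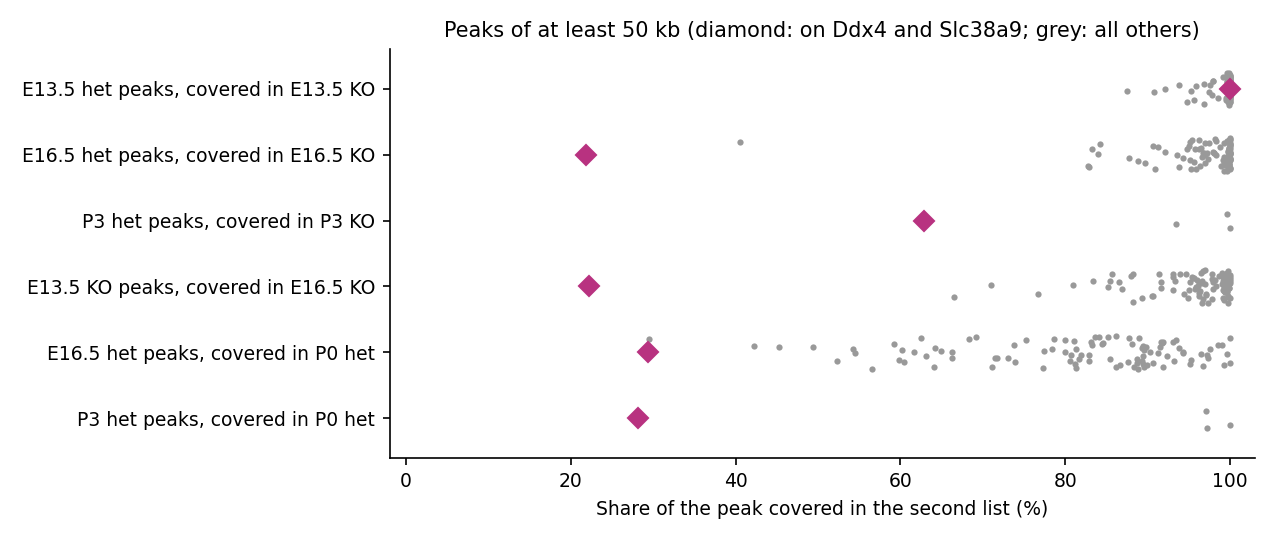
Each point is a peak of at least 50 kb in the list named first on the vertical axis, and its horizontal position is the share of it covered in the list named second, in percent; points are spread vertically for legibility. The diamond marks the peak on Ddx4 and Slc38a9, which has the lowest share in 5 of the 6 rows drawn and 100% in the first.

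The neighbouring genes were covered far less. Il31ra, which encodes the receptor subunit for interleukin 31, lies before Ddx4 and was covered to between 7.41% (P0 KO) and 19.4% (P3 het). In het its share fell from 19.3% at E16.5 to 9.86% at P0 and rose again at P3, as in the pair. In KO it fell from 15.0% at E16.5 to its P0 value, a step at which the pair rose. Il6st, which encodes the shared signal transducer gp130 of the interleukin 6 family, had peaks in E13.5 het (2.54 kb), E13.5 KO (2.13 kb) and P3 KO (0.686 kb) and none in the other 5 lists. After Slc38a9, Plpp1, a lipid phosphate phosphatase, was 0 to 1.49% covered in the embryonic lists and 14.0 to 23.5% covered in the postnatal lists. Mtrex, an RNA helicase of the nuclear exosome, had no peak in any list, and Dhx29, a helicase of translation initiation, at most 7.52% (P3 KO). None of these 5 genes differed by 25 points between het and KO at any stage, the largest gap being 6.55 points for Plpp1 at P3, in favour of KO. Of all genes, only 0.228 to 1.25% did so in either direction at a stage.

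**Figure D5:**
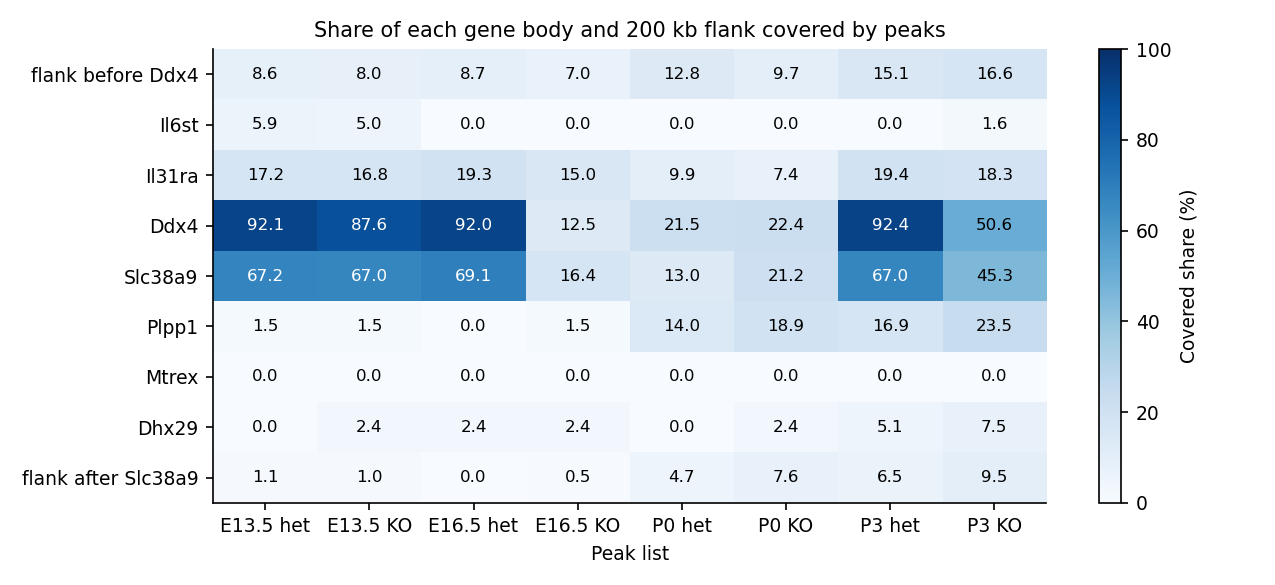
Share of each gene body and of each 200 kb flank covered by peaks, in percent, with genes in chromosome order from top to bottom and the 8 lists from left to right; darker blue is a higher share. Ddx4 and Slc38a9 reach 92.4% and 69.1%, and the neighbours stay at or below 23.5%.

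A single 10.1 kb peak inside Il31ra (chr13:112565106-112575195 in E13.5 het), chosen after its values were seen, ordered the lists much as Ddx4 did. In E13.5 het it measured 10.1 kb, and a single peak took up 9.86 kb of that stretch in the KO list of that stage, 10.04 kb in E16.5 het and 9.77 kb in P3 het. There were 2 peaks in its place in E16.5 KO (7.05 kb), P0 het (4.26 kb), P0 KO (3.10 kb) and P3 KO (8.11 kb). The peak in Plpp1 (chr13:112830472-112846239 in P3 KO) ordered them by age instead. There, at most 1.00 kb was called in any embryonic list, and the postnatal lists called 9.42 kb (P0 het), 12.7 kb (P0 KO), 11.4 kb (P3 het) and 15.8 kb (P3 KO).

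The flanks as a whole did not follow the genes. The 200 kb before Ddx4 held, in the order of the stages, 17.2, 17.3, 25.6 and 30.2 kb of peaks in het and 15.96, 14.02, 19.5 and 33.1 kb in KO. The 200 kb after Slc38a9 held 2.28, 0, 9.42 and 12.9 kb in het and 2.002, 1.001, 15.2 and 18.98 kb in KO. Both flanks held more in each postnatal list than in any embryonic list, and het and KO differed by at most 6.14 kb in either. For the flank before Ddx4 this order of the stages did not hold with the 52628 longest peaks of each list. The lists as a whole covered 166.1 Mb (E13.5 het) to 339.5 Mb (P0 KO), and on chromosome 13 they covered 5.91% (E13.5 het) to 13.0% (P0 KO). The lists with the shortest total length, those of E13.5, were among the filled ones here, and the list with the longest was not. At E16.5 the filled list, het, was longer in total than KO (306.2 against 282.7 Mb), and at P3 it was shorter (287.2 against 314.0 Mb). The part of list size in the values of the locus was not tested.

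Genes with a pattern like that of the pair were looked for by the root mean square difference in covered share over the 8 lists, among 13955 protein-coding genes of at least 10 kb outside the region. The nearest to Ddx4 were Zfp938, at 28.3 points, Gm46345, Zfp706, Gm4924 and Gm10033, the last at 31.3 points. Zfp938 was covered to 88.7% in E13.5 het and 46.7% in P3 het, so the return at P3 was not part of its pattern. Gm46345 did have a higher share at P3, with 56.2% in P0 het, 100% in P3 het and 71.4% in P3 KO, and its shares at E16.5 were 73.2% in het and 60.2% in KO. Zfp706 also fell at P0 and rose at P3, with 64.4% in E16.5 het, 22.5% in P0 het and 42.0% in P3 het. Its KO shares at these stages were 71.8%, 19.8% and 65.8%, so at P3 KO was higher, opposite to Ddx4. The nearest to Slc38a9 were Nipsnap3b, at 17.4 points, Zfp445, Trmt5, Psma1 and Psmg4, the last at 21.2 points. In Nipsnap3b the share was 48.1% in E16.5 het and 44.3% in E16.5 KO, without the gap between genotypes seen in Slc38a9. It then was 24.2% in P0 het and 23.5% in P0 KO, and 47.4% in P3 het and 48.1% in P3 KO. A fall at P0 and a return at P3 in het were thus not particular to Slc38a9. Of 260212 windows of 10 kb over the genome, 3 were at least 80% covered in E13.5 het, E13.5 KO, E16.5 het and P3 het and at most 50% covered in each of the other lists. All 3 lay in the span of Ddx4 and Slc38a9, which also supplied these limits, set after its values were seen.

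Genes that work with Ddx4 in germ cells were then compared, from a list of 23 genes of the piRNA pathway, germ granules and germ cell RNA regulation, all of which were found in the annotation. None reached 50% coverage in any list, and 8 had no peak in any list, among them Dazl, Nanos2 and Nanos3, RNA-binding regulators of germ cell fate. That is 34.8% of the list, beside 45.8% of all protein-coding genes without a peak in any list, and at least 50% coverage was itself rare among all genes. The median gene of the list was 0% covered in 7 lists and 2.23% covered in P3 KO, beside 0% for all genes. None differed by 25 points between het and KO at any stage, beside 0.228 to 1.25% of all genes in either direction, so a list of this size would hold few or none. Mov10l1, a helicase that binds piRNA precursors, was covered for 10.4 kb (het) and 16.02 kb (KO) at E13.5, and for 15.7 and 16.9 kb at E16.5. Later the pairs were 15.1 and 15.8 kb (P0) and 22.7 and 24.1 kb (P3). Tdrd6, a Tudor protein of germ granules, had its largest genotype gap at E13.5, with 0 in het and 3.41 kb in KO, and at E16.5 had 4.31 kb in het and 1.58 kb in KO. Its het step between these stages, 26.1 points, passed the 25-point rule, beside 2.03% of all genes. Pld6, a mitochondrial nuclease-family protein of piRNA biogenesis, had no peak before P3. Of its 3.77 kb, 1.75 kb (46.4%) were then covered in het and 1.32 kb (34.9%) in KO. Its step from P0 to P3 thus passed 25 points in both genotypes, beside 1.04% of all genes in het and 0.95% in KO.

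Of 23 genes of the lysosomal amino acid sensing machinery in which Slc38a9 acts, 11 had no peak in any list, among them all 5 Lamtor genes, which encode the Ragulator complex. That is 47.8% of the list, near the 45.8% of all genes. None reached 50% coverage, beside 2.33 to 3.35% of all genes per list. None differed by 25 points between het and KO, beside 0.228 to 1.25% of all genes in either direction at a stage. Castor2, of the family of cytosolic arginine sensors, was covered for 1.00 kb in each E13.5 list, for 11.8 kb (het) and 11.2 kb (KO) in those of E16.5, for 11.1 and 7.47 kb in those of P0, and for 1.86 kb and 0 in those of P3. Its het step from E13.5 to E16.5, 25.7 points, passed the 25-point rule, beside 2.03% of all genes. Of the 10 other genes of the SLC38 transporter family, 4 (40%) had no peak in any list. None differed by 25 points between genotypes, which was as rare among all genes as given above. The highest share among them was 40.3% for Slc38a1, a glutamine transporter, in P3 KO, where it carried 29.0 kb against 15.1 kb in P3 het, a gap opposite in direction to that of Slc38a9.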

How the data were processed

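H3K9me3 ChIP-seq libraries were made from male germ cells with 2 samples in each of 8 groups of genotype and stage. Another 16 samples, with an antibody against histone H3, entered no comparison. The authors deposited 1 peak list per H3K9me3 group, whose values are a chromosome, a start and an end in base pairs, with no score, signal or p-value. The submitters' processing notes name the build mm10, bcl2fastq 2.20, cutadapt 1.18, Bowtie2 2.3.4.1, deepTools 3.5.0 and HOMER 4.10, with no role or settings. Caller settings, read depth, the use of H3 as control and the handling of replicates are not given in the sources used here. Called length depends on depth and threshold as well as on the mark.

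Starts were read as counted from 0, and coordinates are given from 1. The few peaks on mitochondrial DNA (up to 2 in a list) were not used. Covered length is the number of bases of a gene, flank or window that lie in a peak, computed with Python 3.11.15, numpy 2.4.6 and pandas 2.3.3 and checked on simulated peaks. Gene extents are those of the RefSeq annotation of GRCm38.p6, the assembly that mm10 names. Shares carry 95% Wilson intervals and differences Newcombe intervals over 1 kb bins. With 1 list per group there was no test, and no replicate could be left out. A gene or window was called at a difference of 25 percentage points, or at 50% coverage in a single list. Named genes are the pair, the 5 protein-coding genes that touch the flanks, the 5 genes nearest to each member in covered share, and members of 3 gene lists. Among the listed genes, those given with values were picked after their values were seen. The genes, lists and rules were chosen with earlier results of these data known.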

Additional observations from a re-analysis of the deposited data

Results flagged for a closer look

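The 2 genotypes moved in opposite directions at some steps between stages. These differences between genotypes were not tested, since each group has 1 list. From E16.5 to P0 the covered length of Ddx4 changed by -38.289 kb in het and by 5.373 kb in KO. Over the same step that of Slc38a9 changed by -46.339 kb in het and by 3.947 kb in KO. From E13.5 to E16.5 that of Slc38a9 changed by 1.598 kb in het and by -41.778 kb in KO.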

How the results depend on the processing

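Of 288 values recomputed under the alternatives, 232 stayed within the interval, or for counts within 1.5 times, of the reported value, and 56 did not. The cause of the 56 was not tested. The span difference at P0, -2.81 points, changed sign to 0.75 points when peaks under 5 kb apart were joined, within its interval. With peaks under 5 kb apart joined, the span was covered to 22.5% in E16.5 KO, 26.3% in P0 het and 65.0% in P3 KO, and het minus KO at P3 was 15.6 points. Ddx4 was then covered to 100% in E13.5 het, E13.5 KO, E16.5 het and P3 het, 34.6% in P0 het and 76.1% in P3 KO, Slc38a9 to 56.2% in P3 KO and the flank before Ddx4 to 15.1% in P0 KO. With the longer 50% of each list, the span was covered to 5.45% in E16.5 KO, 12.4% in P0 het, 12.6% in P0 KO and 38.3% in P3 KO, and het minus KO at E16.5 was 73.3 points. Ddx4 then had 5.16% in E16.5 KO and 36.1% in P3 KO, and Slc38a9 had 5.87% in E16.5 KO, 5.49% in P0 het and 11.8% in P0 KO. The flank before Ddx4 had 6.73% in P0 het, 5.38% in P0 KO and 11.6% in P3 KO, and the flank after Slc38a9 had 0 in E13.5 het, E13.5 KO and E16.5 KO. With the 52628 longest peaks of each list, E16.5 KO had 8.52% of the span and 8.69% of Slc38a9. The flank before Ddx4 then had 7.97% in P0 het, under the 8.58% of E13.5 het, whose 52628 peaks were all kept. The flank after Slc38a9 then had 0 in E13.5 KO and E16.5 KO. Without peaks of the commonest length that flank also had 0 in E13.5 KO and E16.5 KO. With 100 kb flanks, the flank before Ddx4 had 17.3% in E16.5 het and 13.0% in E16.5 KO, and the flank after Slc38a9 had 0 in E16.5 KO. With 500 kb flanks, the former had 17.4% in P0 KO and 22.5% in P3 KO, and the latter 4.23% in E13.5 het, 4.63% in E13.5 KO, 7.27% in E16.5 het, 7.44% in E16.5 KO and 8.99% in P0 het. At a difference of 50 points, the genes higher and lower in het were 0.0914% and 0.525% at E13.5, 0.26% and 0.119% at E16.5, 0.187% and 0.343% at P0, and 0.192% and 0.425% at P3. Windows higher in het were then 0.0054% at E16.5 and 0% at P3. When sharing needed 50% of a peak, 3 E16.5 het peaks of the region were shared in place of 6. Joining peaks under 1 kb apart changed nothing, since the smallest gap was 1499 bp. No paired analysis was possible because each group has 1 list with no replicate number and there is no test. For the same reason no replicate could be left out. Read depth is unknown, so a gap in the calls cannot be told apart from signal under the calling threshold.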
